A study of Homo sapiens with 38 samples.

Results

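HOXA13 was forced into RWPE-1 prostate epithelial cells for 48 h and compared with an eGFP plasmid, in 6 RNA-seq libraries of the 38 samples of the study. The 3 overexpression libraries came from flasks given a HOXA13 expression vector. The 3 eGFP libraries came from flasks given the same amount of the matching control plasmid, which expresses eGFP. The libraries were chosen by their column names in the deposited table of TPM, a transcript share corrected for length and scaled to the same total in every library. The remaining RNA-seq libraries, of RWPE-1 and C4-2B cells with a risk region at 7p15 deleted and their controls, enter only where a result is set beside them.

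RWPE-1 cells come from normal human prostate epithelium, were immortalized and do not form tumours; here they were grown in serum-free keratinocyte medium. The cells of both arms carry no edit, and in each flask the brightest 10% for eGFP were taken by cell sorting before RNA was made. The labels do not state what makes the cells of the HOXA13 flasks green. The flasks are separate transfections of 1 cell line, so the p-values measure the spread between flasks. In bulk RNA a lower level in each cell cannot be told apart from fewer cells with the transcript.

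HOXA13 is the most 5' gene of the HOXA cluster on chromosome 7. It encodes a homeodomain transcription factor that patterns the distal limb, the genital tubercle and the urogenital sinus, from which the prostate buds. Homeodomain proteins of this posterior class bind short AT-rich DNA, and posterior HOX proteins are known to repress more anterior HOX genes in several settings. In prostate biology the related HOXB13 is the best known member in luminal cells.

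Overexpression library 1 stood apart from the other 5 libraries, so the fold changes of most genes described and the counts of most gene lists are also given without it. It held 106 genes at 5 TPM or more and at least 2-fold above every other library, against 29 and 37 such genes in overexpression libraries 2 and 3, and 18, 17 and 28 in the eGFP libraries. Of its 106 genes, 40 stood at 0.2 TPM or less in all 12 untransfected RWPE-1 libraries. In the mean of the C4-2B controls, 16 of those 40 genes stood at 10 TPM or more and 18 at 0.2 TPM or less. C4-2B is a luminal prostate cancer line of the same study.

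A list of 135 genes typical of C4-2B (at least 10 TPM in its controls and at most 0.2 TPM in every untransfected RWPE-1 library) was summed in each library. The sum was 338 TPM in overexpression library 1, 62.5 TPM in library 2 and 78.8 TPM in library 3, against 58.1, 52.5 and 67.1 TPM in the eGFP libraries. It was 1.31 to 2.61 TPM in the untransfected RWPE-1 libraries and 6018 TPM in the C4-2B controls. Library 1 was the highest of the 6 at 87 of the 135 genes, and 25 of them were at 0 in it. In library 1 the genes stood at a median of 3.09% of their C4-2B level, with a range of 0% to 46.7%.

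Several luminal genes were among those highest in library 1. FOXA1, a pioneer factor of luminal cells, gave a log2 fold change of 1.54 over all 6 libraries and 0.64 without library 1. KLK4, a prostate kallikrein, had 25.5 TPM in overexpression library 1 and 1.5 and 8.06 TPM in libraries 2 and 3, against 2.17, 0.95 and 3.44 TPM in the eGFP libraries, and its groups overlapped. The log2 fold change of KLK4 was 1.48, and 0.66 without library 1. Some defining genes of C4-2B stayed near 0 in library 1. KLK3, which encodes prostate-specific antigen, had 1.15 TPM there, TMPRSS2, a luminal protease, had 0.98 TPM, and PAGE1 was listed at 0.

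Summed over the 29 luminal markers, TPM was 1668, 1423 and 1341 in the overexpression libraries, against 1289, 1393 and 1293 in the eGFP libraries. Of 13 luminal markers tested 0 passed limma over all genes, with an unadjusted p under 0.05 at 2, and 3 were higher and 1 lower without overlap, against 12.4% and 8.68% of all genes. Without library 1 the counts were 3 higher and 1 lower of 12 luminal markers, against 23.2% and 12% of all genes. Markers of fibroblasts summed to 26.9, 25.2 and 35.5 TPM in the overexpression libraries, against 29.9, 27.0 and 34.5 TPM in the eGFP libraries. Endothelial markers summed to 2.5, 3.01 and 1.75 TPM in the overexpression libraries, against 1.06, 0.68 and 1.24 TPM in the eGFP libraries, nearly all of it CLDN5, a tight-junction claudin (2.48, 2.85 and 1.68 TPM in the overexpression libraries, against 0.8, 0.57 and 0.99 TPM in the eGFP libraries). Immune markers summed to 174, 207 and 191 TPM in the overexpression libraries, against 161, 155 and 138 TPM in the eGFP libraries. Most of that sum was CD68, a lysosomal protein of macrophages and other cells, whose groups did not overlap (log2 fold change 0.33, and 0.40 without library 1), and PTPRC, the pan-leukocyte CD45, was listed at 0 in all 6 libraries. Neuroendocrine markers summed to 28.1, 15.98 and 17.7 TPM in the overexpression libraries, against 13.2, 10.8 and 13.3 TPM in the eGFP libraries. Of 5 tested, 2, SYP and CHGB, were higher without overlap, against 12.4% of all genes. The count was 1 of 5 under median-ratio scaling and under quantile normalization, against 8.8% and 9.94% of all genes. Without library 1 it was 2 of 5, against 23.2%. INSM1 was listed at 0 in all 6 libraries. The 24 basal markers summed to 18860, 19990 and 20710 TPM in the overexpression libraries, against 20860, 20940 and 19640 TPM in the eGFP libraries. Library 1 also held cancer-testis genes that C4-2B lacks, which were picked out after their values were seen. MAGEA4 had 9.15 TPM in overexpression library 1 and 0.77 and 0.86 TPM in libraries 2 and 3, against 0.11, 0.11 and 0.13 TPM in the eGFP libraries, and 0.0256 TPM in C4-2B. SSX2, a member of a family of near-identical copies whose reads could be split wrongly, had 10.0 TPM in library 1 and at most 0.88 TPM in the other 5. The part of these genes in the results below was not tested beyond leaving library 1 out.

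**Figure D1:**
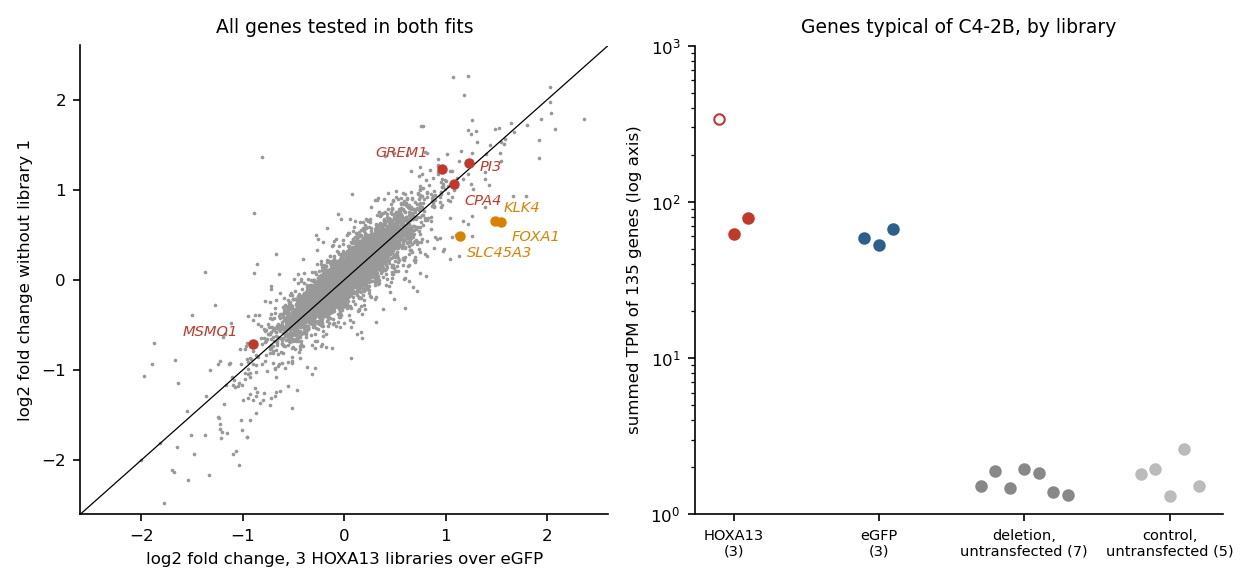
Left, log2 fold change of each gene tested in both fits, overexpression over eGFP, over all 6 libraries (horizontal axis) and without overexpression library 1 (vertical axis), with 16 genes outside the axes; GREM1, PI3 and CPA4 lie away from 0 on both axes, and FOXA1, KLK4 and SLC45A3 lie nearer 0 without library 1. Right, summed TPM of the 135 genes typical of C4-2B in each library, on a log axis; overexpression library 1 stands at 338 TPM and the other 5 transfected libraries between 52.5 and 78.8 TPM.

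The forced gene itself was high in every overexpression library. HOXA13 (ENSG00000106031.7_1) had 684, 717 and 842 TPM in the overexpression libraries, against 3.77, 1.79 and 2.44 TPM in the eGFP libraries. It rose by 7.70 on the log2(TPM + 1) scale (SE 0.19, limma with Benjamini-Hochberg adjustment over 14814 genes, adjusted p = 1.29e-05), and by 7.76 without library 1. An exact permutation test of the log2 values gave p = 0.1, which 3 against 3 libraries cannot go below. Transcripts of the vector and of the cell's own gene cannot be told apart. Library 1 had the lowest HOXA13 of the overexpression libraries.

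PI3 was the only other gene that passed. It encodes elafin, a secreted inhibitor of neutrophil elastase made by squamous and glandular epithelia. PI3 (chromosome 20) had 136, 156 and 158 TPM in the overexpression libraries, against 66.3, 66.4 and 57.6 TPM in the eGFP libraries. The means were 149.9 ± 12.5 TPM in overexpression and 63.4 ± 5.05 TPM in eGFP (SD, n = 3 each). It rose by 1.23 on the log2 scale (SE 0.09, limma with Benjamini-Hochberg adjustment, adjusted p = 0.0151), and it also passed without library 1 (limma adjusted p = 0.0221). Its call was lost in several other fits, with limma adjusted p of 0.0711 without overexpression library 2, 0.0722 without overexpression library 3, 0.119 without eGFP library 2 and 0.0734 without eGFP library 3. The authors' deposited table gives PI3 a log2 fold change of 1.06 (adjusted p = 2.47e-25).

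In all, limma with Benjamini-Hochberg adjustment called 2 of 14814 genes (0.0135%), both higher, and 0 lower. At an unadjusted limma p under 0.05 there were 1132 genes higher (7.64%) and 870 lower (5.87%). Without library 1 the same 2 genes passed, of 14537 tested (0.0138%). Most differences were small. The middle of all genes lay at a log2 fold change of 0.04, the 5th and 95th percentiles at -0.37 and 0.44, and 156 genes differed by 2-fold or more. The median standard error of a log2 fold change was 0.13.

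As a simple description, a gene's groups were said not to overlap when all 3 overexpression libraries lay on 1 side of all 3 eGFP libraries. This held for 1837 genes that were higher in overexpression (12.4%) and 1286 that were lower (8.68%). The balance depended on the scaling of the libraries. Median-ratio scaling gave 1302 genes higher (8.8%) and 1820 lower (12.3%), and quantile normalization gave 1472 (9.94%) and 1750 (11.8%). Without library 1, where 2 libraries face 3, the shares were 23.2% higher and 12% lower. The counts of each list below are to be read against the shares of all genes in the same setting, and a list whose share lies near them is not set apart from other genes.

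The authors' deposited table of the same 6 libraries calls many more genes. Of its 12329 genes with an adjusted p, 299 were higher (2.43%) and 1188 lower (9.64%) at an adjusted p under 0.05. It was made from counts of the same libraries, so it is a second processing and not separate evidence. Of the authors' 299 higher genes 287 were tested here on TPM, 285 had the same sign, 200 had groups that did not overlap and 277 kept the sign without library 1. Of the authors' 1188 lower genes 1184 were tested here, 1074 had the same sign, 563 had groups that did not overlap and 969 kept the sign without library 1. The genes below were named by rules on either kind of value or on gene lists, so a gene that stands out in 1 of them need not stand out in the other.

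CPA4, KRT34, WHRN and ACHE led the genes called higher in the authors' deposited table, beside HOXA13 and PI3. Their promoters are shown because posterior HOX proteins are known for AT-rich binding letters, and these 4 differ in them. Each runs from 250 bases before the start of the gene to 50 bases after it, from RefSeq (GRCh38.p14), 5' to 3' on the gene's strand. Capitals mark TTTAT or TTTAC, the letters shared by posterior HOX sites, on either strand.
CPA4: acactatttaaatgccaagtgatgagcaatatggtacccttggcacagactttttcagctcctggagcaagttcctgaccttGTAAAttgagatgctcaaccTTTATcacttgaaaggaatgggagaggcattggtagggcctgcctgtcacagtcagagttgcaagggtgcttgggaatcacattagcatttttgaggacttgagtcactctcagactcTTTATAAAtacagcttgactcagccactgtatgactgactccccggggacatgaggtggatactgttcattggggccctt
KRT34: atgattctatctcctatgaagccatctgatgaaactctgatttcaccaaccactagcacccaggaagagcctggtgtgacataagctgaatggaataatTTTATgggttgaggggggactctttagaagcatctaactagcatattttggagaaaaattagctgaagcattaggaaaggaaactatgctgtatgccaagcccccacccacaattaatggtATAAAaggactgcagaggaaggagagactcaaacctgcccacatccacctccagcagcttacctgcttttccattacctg
ACHE: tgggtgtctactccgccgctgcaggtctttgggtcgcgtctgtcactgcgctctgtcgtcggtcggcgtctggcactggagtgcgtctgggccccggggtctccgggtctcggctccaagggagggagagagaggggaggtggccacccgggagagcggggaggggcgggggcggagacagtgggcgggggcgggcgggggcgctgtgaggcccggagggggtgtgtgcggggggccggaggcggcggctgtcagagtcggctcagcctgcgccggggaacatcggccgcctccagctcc
WHRN: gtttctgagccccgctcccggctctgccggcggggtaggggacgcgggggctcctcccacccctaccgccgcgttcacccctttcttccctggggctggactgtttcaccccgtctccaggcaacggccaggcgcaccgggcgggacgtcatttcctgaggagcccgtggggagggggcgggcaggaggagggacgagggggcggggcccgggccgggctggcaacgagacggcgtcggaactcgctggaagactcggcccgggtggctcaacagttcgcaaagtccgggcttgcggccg
The CPA4 promoter (chr7:130292911-130293210, plus strand) held TTTAT 3 times and TTTAC 1 time, counting both strands, and a TTTATAAA stretch before its start counts as 2 overlapping matches. The KRT34 promoter (chr17:41382257-41382556, minus strand) held TTTAT in 2 places. The ACHE promoter (chr7:100895839-100896138, minus strand) and the WHRN promoter (chr9:114505424-114505723, minus strand) held neither.

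The shares of promoters that hold these letters lay close together. TTTAT or TTTAC stood in 33.9% of the 10469 promoters of tested genes, in 80 of 222 promoters of genes called higher in the authors' deposited table (36%) and in 355 of 983 of genes called lower (36.1%). The longer posterior HOX letters CAATAAA or CTCGTAAA stood in 2.23% of promoters of tested genes, in 6 of the 222 (2.7%) and in 21 of the 983 (2.14%). These are matches of letters in short windows and say nothing of binding.

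CPA4, a secreted carboxypeptidase, had 10.7, 9.63 and 10.96 TPM in the overexpression libraries, against 3.71, 4.87 and 4.71 TPM in the eGFP libraries. The log2 fold change was 1.08 (SE 0.13, limma adjusted p = 0.149) and 1.06 without library 1. KRT34, a hair keratin, had 2.73, 3.11 and 5.29 TPM in the overexpression libraries, against 1.03, 1.11 and 0.63 TPM in the eGFP libraries. Both genes were clearly separated by arm, and both were called higher in the authors' deposited table, with log2 values of 0.94 for CPA4 and 0.85 for KRT34. WHRN, a scaffold protein of hair-cell stereocilia, had 17.2, 22.6 and 25.5 TPM in the overexpression libraries, against 12.5, 11.1 and 11.7 TPM in the eGFP libraries. ACHE, acetylcholinesterase, had 1.91, 2.08 and 3.1 TPM in the overexpression libraries, against 0.64, 0.76 and 1.15 TPM in the eGFP libraries. The authors' deposited table gives log2 values of 0.76 for WHRN and 0.96 for ACHE. For these 4 genes library 1 did not set the difference, since their log2 fold changes from TPM without it were 1.06 for CPA4, 1.41 for KRT34, 0.97 for WHRN and 0.95 for ACHE.

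GREM1, a secreted antagonist of bone morphogenetic proteins, stood higher with a wide spread. It had 15.5, 23.2 and 32.6 TPM in the overexpression libraries, against 11.8, 11.04 and 10.8 TPM in the eGFP libraries. Library 1 was the lowest of its group, and the log2 fold change was 0.96 over all libraries and 1.23 without library 1. The authors' deposited table gives it 0.41 with an adjusted p of 0.0507. RCOR2, a corepressor, had 5.46, 3.88 and 6.05 TPM in the overexpression libraries, against 1.82, 1.49 and 1.52 TPM in the eGFP libraries, and was called higher in the authors' deposited table with a log2 value of 0.41. RCOR2 gave a log2 fold change of 1.22 from TPM, and 1.17 without library 1.

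Some large differences in TPM were not shared by the authors' deposited table. That table does not say whether its log2 values are shrunken (pulled toward 0), so the sizes may not be alike. HOXA13 stands at 2.08 there and at 7.70 from TPM. RP1 gave the largest log2 fold change after HOXA13 among the genes named by the rule, 1.97 without library 1, with 6.57, 3.99 and 7.93 TPM in the overexpression libraries, against 1.02, 0.98 and 0.24 TPM in the eGFP libraries. The authors' deposited table gives RP1 a log2 value of 0.08 and no adjusted p. Its mean normalized count there, averaged over libraries, is only 8.13. LRBA had a log2 fold change of 1.25 from TPM and -0.07 in the authors' deposited table, and SYNJ1 had 0.93 from TPM and -0.06 in that table. EIF2S3, a translation initiation subunit chosen after its values were seen, even differed in sign. It had 2142, 2769 and 1251 TPM in the overexpression libraries, against 1181, 1053 and 225 TPM in the eGFP libraries, while the authors' deposited table calls it lower, at -0.28. Both log2 values may not share a scale, so a gap between them is only a description. A gap of 0.5 or more was found for 7 of the 287 genes called higher in the authors' deposited table. It was found for 35 of the 1184 called lower. With library 1 left out, the log2 fold changes from TPM were 1.07 for LRBA, 1.17 for SYNJ1 and 1.51 for EIF2S3.

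**Figure D2:**
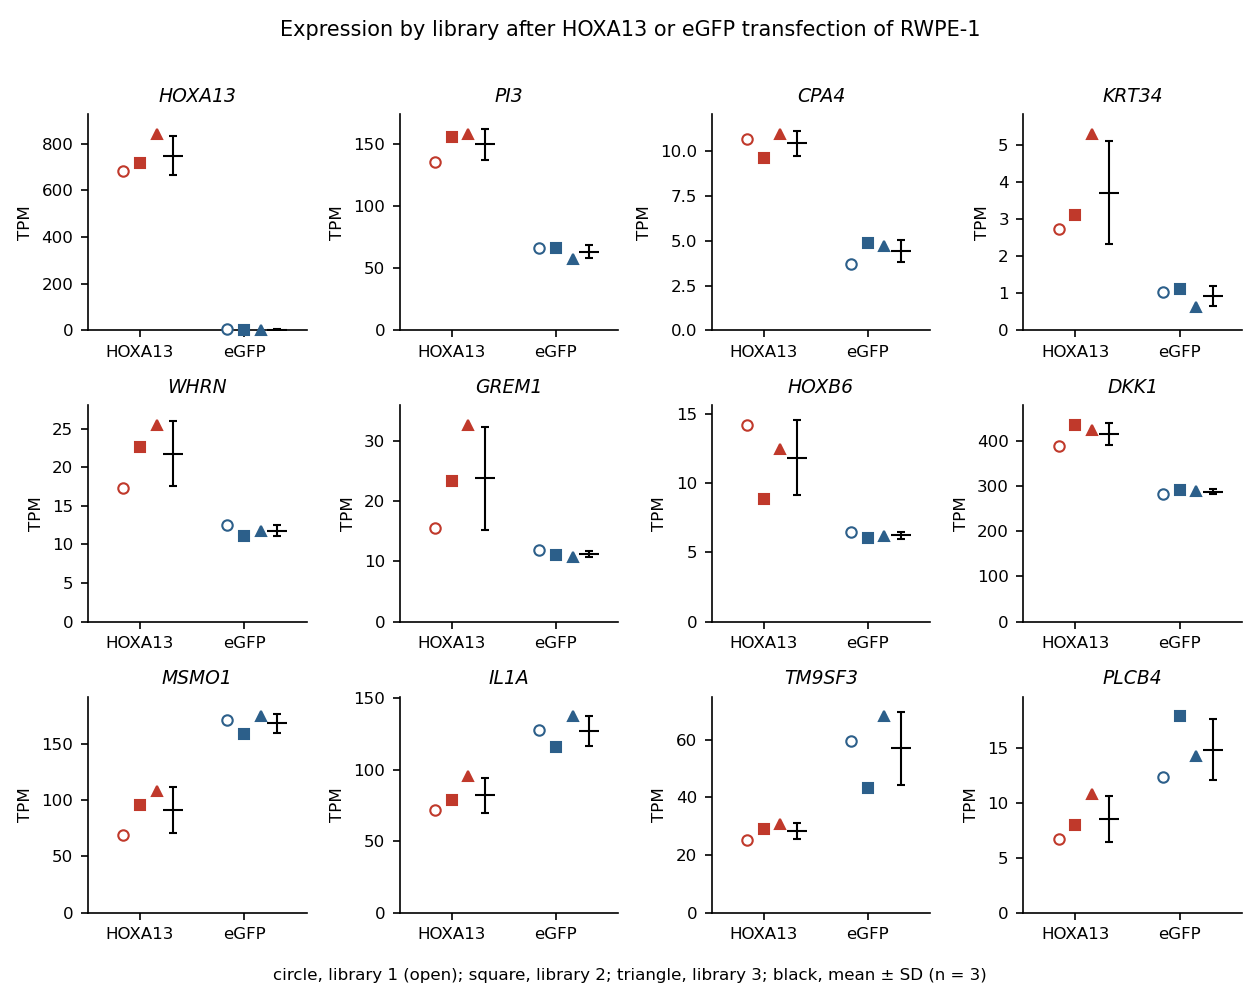
TPM of 12 genes in each library, HOXA13 overexpression left of eGFP, with the mean and SD (n = 3) and the library number shown by the marker (open circle for library 1). HOXA13, PI3, CPA4, KRT34, WHRN, GREM1, HOXB6 and DKK1 stand higher in all 3 overexpression libraries, and MSMO1, IL1A, TM9SF3 and PLCB4 stand lower in all 3.

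The HOXA cluster around the forced gene gave 1 member that passed, HOXA13 itself, of 15 tested. Groups did not overlap at 4 members that were lower, against 8.68% of all genes. The count was 4 under both scalings too, against 12.3% and 11.8% of all genes there, and 5 without library 1, against 12%. HOXA7, an anterior member, had 10.2, 10.3 and 10.4 TPM in the overexpression libraries, against 14.4, 13.4 and 16.02 TPM in the eGFP libraries (log2 fold change -0.46 with and without library 1, limma adjusted p = 0.243). HOXA9 had 75.6, 78.6 and 76.1 TPM in the overexpression libraries, against 83.1, 80.5 and 83.2 TPM in the eGFP libraries, a log2 fold change of -0.10. HOXA11, the neighbour with a role in the uterus and forearm, had 10.2, 9.44 and 10.99 TPM in the overexpression libraries, against 12.9, 11.4 and 13.6 TPM in the eGFP libraries. The authors' deposited table calls these 3 lower, at -0.38 for HOXA7, -0.48 for HOXA9 and -0.29 for HOXA11. They are 3 of 13 members with an adjusted p, against 9.64% of its genes. In the fit without library 1 the log2 fold changes were -0.09 for HOXA9 and -0.28 for HOXA11.

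HOTAIRM1, an RNA made antisense at the 3' end of the cluster, was the other member without overlap, at a log2 fold change of -0.26 (-0.24 without library 1), and was not called in the authors' deposited table (adjusted p = 0.105). Whether reads were counted by strand is not stated, so antisense genes of the cluster are uncertain. HOTTIP, the antisense RNA beside HOXA13, had 0.75, 0.81 and 0.56 TPM in the overexpression libraries, against 0.54, 0.72 and 1 TPM in the eGFP libraries, and was too low to be tested. HOXA10, between HOXA9 and HOXA11, had 17.04, 17.3 and 16.1 TPM in the overexpression libraries, against 16.4, 15.4 and 17.4 TPM in the eGFP libraries, and its groups overlapped. The log2 fold change of HOXA10 was 0.03 with and without library 1. HOXA5 spread widely in the overexpression libraries, at 10.9, 7.71 and 3.94 TPM, against 8.28, 8.95 and 8.44 TPM in the eGFP libraries. The log2 fold change of HOXA5 was -0.26, and -0.54 without library 1. The median over the cluster was a log2 fold change of 0.00, beside 0.04 over all genes.

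In the HOXB cluster 3 of 6 tested members stood higher without overlap, against 12.4% of all genes. Under median-ratio scaling and quantile normalization 2 of 6 did, against 8.8% and 9.94%. Without library 1 the counts were 4 higher and 1 lower, against 23.2% and 12% of all genes. The median log2 fold change was 0.33. HOXB6 had 14.2, 8.87 and 12.4 TPM in the overexpression libraries, against 6.48, 6.01 and 6.2 TPM in the eGFP libraries. Its log2 fold change was 0.81 (limma adjusted p = 0.241) and 0.67 without library 1. HOXB5 had 4.25, 2.88 and 3.09 TPM in the overexpression libraries, against 1.78, 1.38 and 2.75 TPM in the eGFP libraries, where the closest libraries of both arms lie 2.88 against 2.75 TPM, and its log2 fold change was 0.58, and 0.45 without library 1. The authors' deposited table calls HOXB6, HOXB5 and HOXB13 higher, at 0.60, 0.48 and 0.43. These are 3 of 7 members with an adjusted p, against 2.43% of its genes. HOXB13 had 2.97 TPM in overexpression library 1 and 0.94 and 0.69 TPM in libraries 2 and 3, against 0.5, 0.72 and 0.54 TPM in the eGFP libraries, so its TPM difference rested on library 1. The HOXC and HOXD lists together had 1 of 10 tested members lower without overlap, near the 8.68% of all genes, and 0 higher, against 12.4%. The lower member was HOXD13, the HOXD counterpart of HOXA13, at -0.16 with and without library 1. An unadjusted limma p under 0.05 was reached by 0 of the 10. Without library 1, 2 of 8 members were lower, against 12% of all genes.

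PI3 belongs to a list of 46 squamous genes and protease inhibitors, 29 of which were tested. Groups did not overlap at 6 members that were higher and 2 that were lower, against 12.4% and 8.68% of all genes, with a median of 0.02. With median-ratio scaling the counts were 5 and 4 of 28, against 8.8% and 12.3% of all genes. With quantile normalization they were 6 and 2 of 29, against 9.94% and 11.8%. Without library 1 they were 8 and 2 of 28, against 23.2% and 12%. The authors' deposited table calls 5 higher, PI3, SLPI, SPINK6, SERPINB3 and SERPINB4, and 2 lower, CSTA and KRT6A, of 19 with an adjusted p, against 2.43% and 9.64% of all genes in that table. The 5 higher genes are inhibitors of proteases. SERPINB3 and SERPINB4 were named after their values were seen, and as near-identical copies they may share reads.

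SLPI, a secreted inhibitor of elastase like PI3, had 293, 311 and 307 TPM in the overexpression libraries, against 248, 227 and 238 TPM in the eGFP libraries. Its log2 fold change was 0.35 (SE 0.06, limma adjusted p = 0.206) and 0.38 without library 1. SPINK6, a kallikrein inhibitor of skin, had 22.0, 25.7 and 53.4 TPM in the overexpression libraries, against 15.8, 13.2 and 17.7 TPM in the eGFP libraries, with library 3 well above the others. SERPINB3 had 19.1, 28.7 and 21.5 TPM in the overexpression libraries, against 15.4, 14.0 and 18.2 TPM in the eGFP libraries. CSTA, an inhibitor of cysteine proteases of the cornified envelope, lay the other way, with 32.2, 27.4 and 30.9 TPM in the overexpression libraries, against 38.5, 40.5 and 43.3 TPM in the eGFP libraries. The groups of all 4 genes were separate, and CSTA gave a log2 fold change of -0.42. Without library 1 the log2 fold changes were 1.21 for SPINK6, against 0.97 with it, 0.63 for SERPINB3, against 0.51, and -0.47 for CSTA.

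Several enzymes of cholesterol synthesis stood lower. Of 25 members tested, 8 had lower groups without overlap and 1 had higher, against 8.68% and 12.4% of all genes. The counts were 9 lower and 0 higher under median-ratio scaling (12.3% and 8.8% of all genes), 8 and 0 under quantile normalization (11.8% and 9.94%) and 8 and 3 without library 1 (12% and 23.2%). The authors' deposited table calls 9 members lower and 1 higher, TM7SF2, against 9.64% and 2.43% of its genes. The median over the list was -0.05.

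MSMO1, which removes methyl groups from sterols, had 68.8, 95.9 and 108 TPM in the overexpression libraries, against 171, 159 and 174 TPM in the eGFP libraries. Its log2 fold change was -0.90 (SE 0.16, limma adjusted p = 0.206) and -0.71 without library 1, and the authors' deposited table calls it lower at -0.85. SC5D, a sterol desaturase, had 10.2, 11.7 and 14.6 TPM in the overexpression libraries, against 20.6, 15.8 and 29.6 TPM in the eGFP libraries. IDI1, which isomerizes the isoprenoid unit, had 36.2, 40.9 and 46.4 TPM in the overexpression libraries, against 56.1, 51.2 and 62.3 TPM in the eGFP libraries. In all 3 enzymes library 1 was the lowest overexpression library. CYP51A1, another sterol demethylase, gave -0.36 from TPM but 0.11 with an adjusted p of 0.594 in the authors' deposited table. With library 1 left out, the log2 fold changes were -0.66 for SC5D, -0.36 for IDI1 and -0.24 for CYP51A1.

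Secreted signals stood higher and lower. DKK1, a secreted Wnt antagonist that is also a Wnt target, had 389, 436 and 424 TPM in the overexpression libraries, against 282, 293 and 290 TPM in the eGFP libraries. Its log2 fold change was 0.53 (SE 0.06, limma adjusted p = 0.138, the lowest after HOXA13 and PI3) and 0.58 without library 1. The authors' deposited table calls DKK1 higher at 0.34. CCND1, cyclin D1, had 171, 101 and 104 TPM in the overexpression libraries, against 77.4, 76.4 and 86.4 TPM in the eGFP libraries, with library 1 far above the rest. Its log2 fold change was 0.60, and 0.35 without library 1, and it was not called in the authors' deposited table (adjusted p = 0.612). Among 8 tested Wnt targets, 3 had higher groups without overlap and 1, CD44, lower, against 12.4% and 8.68% of all genes, with a median of 0.20. Median-ratio scaling gave 3 and 1 (8.8% and 12.3% of all genes), and quantile normalization gave 2 and 1 (9.94% and 11.8%). Leaving out library 1 gave 4 and 1 (23.2% and 12%).

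IL1A, the interleukin-1 alpha alarmin of epithelial cells, stood lower, with 71.9, 79.2 and 95.7 TPM in the overexpression libraries, against 128, 116 and 138 TPM in the eGFP libraries. The log2 fold change was -0.63 (SE 0.12) and -0.54 without library 1, and the authors' deposited table calls IL1A lower at -0.59. CXCL8, a neutrophil chemokine, had 60.4, 72.7 and 96.1 TPM in the overexpression libraries, against 106, 107 and 110.3 TPM in the eGFP libraries. IL6, chosen after its values were seen, lay the other way, with 140.4, 157 and 194 TPM in the overexpression libraries, against 121, 125 and 132 TPM in the eGFP libraries. NFKBIA, the feedback inhibitor of NF-kB, gave 0.31 from TPM and -0.02 in the authors' deposited table. Of the 22 NF-kB genes tested, 2 had higher and 4 lower groups without overlap, against 12.4% and 8.68% of all genes. Median-ratio scaling gave 2 and 8 (8.8% and 12.3% of all genes), and quantile normalization gave 2 and 5 (9.94% and 11.8%). Leaving out library 1 gave 6 and 4 (23.2% and 12%). In the fit without library 1 the log2 fold changes were -0.36 for CXCL8, against -0.51 with it, 0.47 for IL6 and 0.36 for NFKBIA.

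AREG, an EGF receptor ligand of epithelia, had 115, 104 and 121 TPM in the overexpression libraries, against 154, 152 and 144 TPM in the eGFP libraries. The log2 fold change was -0.40, and the authors' deposited table gives -0.17 with an adjusted p of 0.497. NRG1, a ligand of ERBB3, gave 0.33, and the authors' deposited table gives 0.27 with an adjusted p of 0.0890. Both genes had groups without overlap. Without library 1 AREG gave -0.42 and NRG1 0.43.

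The heavy chains of class I antigen presentation stood higher by small amounts. HLA-B had 1772, 1608 and 1704 TPM in the overexpression libraries, against 1465, 1461 and 1506 TPM in the eGFP libraries, a log2 fold change of 0.20 (0.16 without library 1). HLA-C gave 0.17, HLA-E 0.23 and the peptide transporter TAP1 0.19, and these genes and HLA-B had groups without overlap. B2M, the light chain, gave -0.21 and lay lower without overlap, and gave -0.12 without library 1. The other 3 genes gave 0.16 for HLA-C, 0.29 for HLA-E and 0.22 for TAP1 without library 1. Of 18 members tested 5 were higher and 1 lower without overlap, against 12.4% and 8.68% of all genes, with a median of 0.06. Without library 1 the counts were 6 and 2, against 23.2% and 12%. The authors' deposited table calls 2 of 18 in each direction, against 2.43% higher and 9.64% lower of its genes. Neither HLA-B (adjusted p = 0.0691) nor HLA-C (adjusted p = 0.129) is among them. HLA genes are close copies whose reads can be split between them.

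Of 24 basal markers, 7 were lower and 2 higher without overlap, against 8.68% and 12.4% of all genes. Median-ratio scaling gave 8 and 1 (12.3% and 8.8% of all genes), and quantile normalization gave 6 and 2 (11.8% and 9.94%). Leaving out library 1 gave 7 and 4 (12% and 23.2%). The median was -0.07 over all libraries and -0.02 without library 1. KRT5, the basal keratin, had 2540.1, 2661 and 2726 TPM in the overexpression libraries, against 3048, 3126 and 2931 TPM in the eGFP libraries, a log2 fold change of -0.20. Its partner KRT14 gave -0.00 and TP63, the basal transcription factor, gave -0.07, and both had overlapping groups; without library 1 they gave 0.02 and 0.04. TRIM29, a basal ubiquitin ligase, had 145, 156 and 159 TPM in the overexpression libraries, against 125, 128 and 129 TPM in the eGFP libraries. The authors' deposited table calls TRIM29 higher at 0.25 and KRT5 lower at -0.18. Without library 1 KRT5 gave -0.17 and TRIM29 0.30.

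The replication-dependent histones had 4 of 13 tested members lower without overlap and 0 higher, against 8.68% and 12.4% of all genes, with a median of -0.20. Without library 1 they had 5 lower and 0 higher, against 12% and 23.2%. H2AC6 had 13.3, 13.5 and 17.3 TPM in the overexpression libraries, against 22.9, 20.5 and 21.7 TPM in the eGFP libraries. It was the only member that the authors' deposited table calls, lower at -0.51, of 8 with an adjusted p, against 9.64% of its genes. Nuclear genes of the respiratory chain had 7 of 30 lower and 1 higher without overlap, against 8.68% and 12.4% of all genes, and 15 lower and 1 higher without library 1, against 12% and 23.2%. Among them COX7C, a subunit of cytochrome oxidase, had 367, 371 and 424 TPM in the overexpression libraries, against 494, 488 and 506 TPM in the eGFP libraries. Proliferation genes had 3 of 25 lower and 1 higher, near or below the shares of all genes, and 5 and 4 without library 1, against 12% and 23.2%. CDK1, the mitotic kinase, was among the lower at -0.41. Without library 1 the log2 fold changes were -0.48 for H2AC6, -0.32 for COX7C and -0.44 for CDK1.

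Genes beside the HOXA cluster on 7p15 were tested as a list of 20, of which 5 were lower and 1 higher without overlap, against 8.68% and 12.4% of all genes, and 6 and 3 without library 1, against 12% and 23.2%. The authors' deposited table calls 6 of the 20 lower, against 9.64% of its genes. FKBP14, a folding enzyme of the endoplasmic reticulum, had 5.09, 5.92 and 6.03 TPM in the overexpression libraries, against 9.33, 8.94 and 9.86 TPM in the eGFP libraries, a log2 fold change of -0.64 and of -0.57 without library 1. The HOXA13 targets known from mouse limb and genital studies gave 1 higher and 2 lower of 15 without overlap, near the shares of all genes. They gave 0 and 2 under median-ratio scaling (8.8% and 12.3% of all genes) and under quantile normalization (9.94% and 11.8%). Without library 1 they gave 5 and 3, against 23.2% and 12%. The interferon response list gave 3 higher and 2 lower of 33, both below the shares of all genes. It gave 0 and 6 with median-ratio scaling (8.8% and 12.3% of all genes) but 5 and 2 with quantile normalization (9.94% and 11.8%). Without library 1 it gave 6 and 2 (23.2% and 12%).

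**Figure D3:**
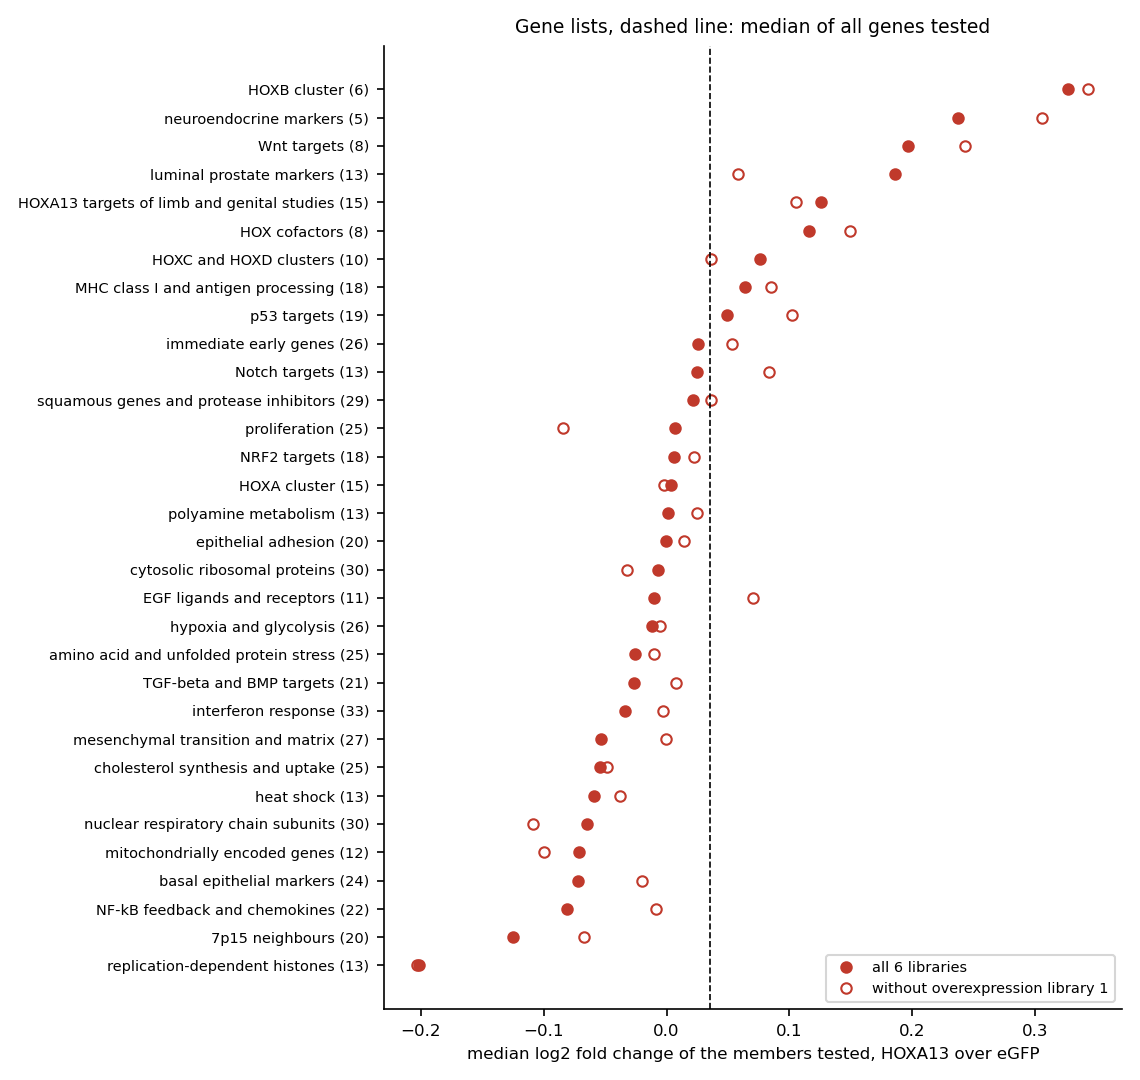
Median log2 fold change, overexpression over eGFP, of each gene list with at least 5 tested members, over all 6 libraries (filled) and without overexpression library 1 (open); the dashed line marks the median of all genes, 0.04. The HOXB cluster stands at 0.33 and the replication-dependent histones at -0.20, and luminal markers stand at 0.19 over all libraries and at 0.06 without library 1.

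Further genes at the lower end stood out by size. GOLT1B, a Golgi transport protein, had 99.7, 76.6 and 57.4 TPM in the overexpression libraries, against 126, 186 and 225 TPM in the eGFP libraries, a log2 fold change of -1.19. TM9SF3, another Golgi membrane protein, had 25.3, 29.1 and 30.9 TPM in the overexpression libraries, against 59.6, 43.2 and 68.2 TPM in the eGFP libraries. PLCB4, a phospholipase of G-protein signalling, had 6.77, 8.05 and 10.8 TPM in the overexpression libraries, against 12.4, 17.9 and 14.3 TPM in the eGFP libraries. The authors' deposited table calls all 3 lower, at -0.66 for GOLT1B, -0.46 for TM9SF3 and -0.80 for PLCB4. METAP2, which trims the first methionine of proteins, gave -1.01 from TPM but -0.20 in the authors' deposited table, and its eGFP library 3 stood at 488 TPM beside 249 and 250.5 TPM in eGFP libraries 1 and 2. With library 1 left out, the log2 fold changes from TPM were -1.38 for GOLT1B, -0.88 for TM9SF3, -0.60 for PLCB4 and -1.17 for METAP2.

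Other genes at the lower end of the authors' deposited table differed less in TPM. SRP9, a part of the signal recognition particle, stands at -0.83 in the authors' deposited table, and gave -0.22 from TPM, with 439, 444 and 405 TPM in the overexpression libraries, against 501, 499 and 498 TPM in the eGFP libraries, which did not overlap. SDHD, a subunit of succinate dehydrogenase, stands at -0.79 in the authors' deposited table, and its groups overlapped in TPM, at -0.07. EEF1E1 and TMED7 stand at -0.78 and -0.77 in the authors' deposited table and gave -0.21, without overlap, and -0.12, with overlap, from TPM. Without library 1 the values from TPM were -0.24 for SRP9, -0.03 for SDHD, -0.25 for EEF1E1 and -0.02 for TMED7. The median log2 value of the genes called lower was -0.33 in the authors' deposited table and -0.24 from TPM over the tested genes. For the genes called higher it was 0.29 in the authors' deposited table and 0.33 from TPM.

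**Figure D4:**
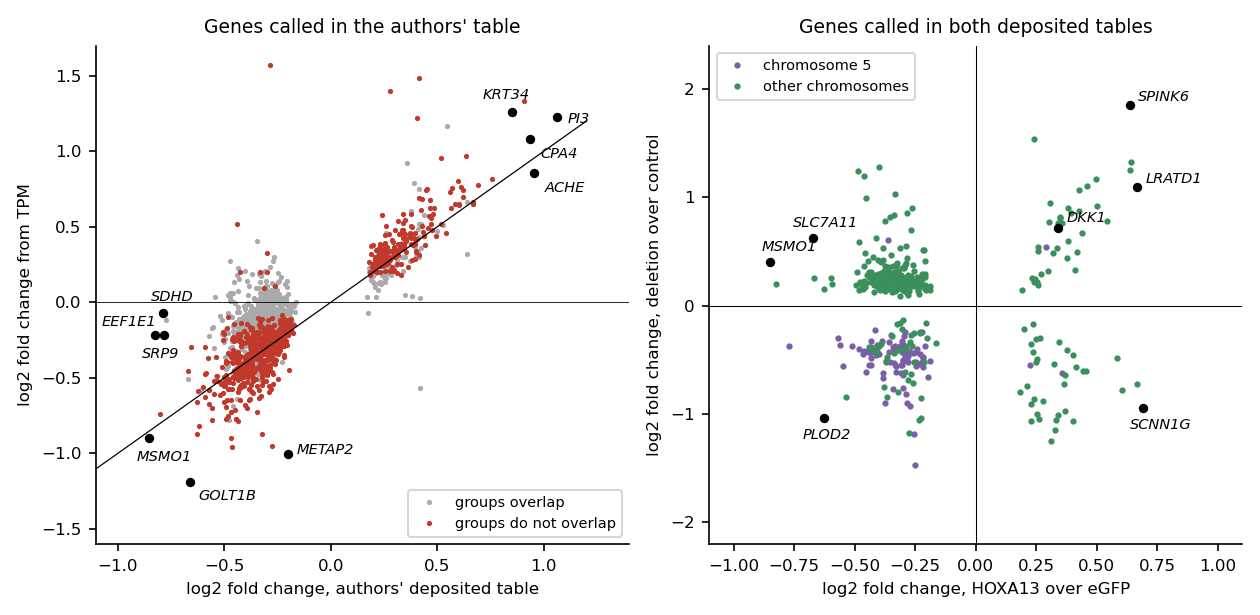
Left, log2 fold change of overexpression over eGFP in the authors' deposited table (horizontal axis) and from TPM (vertical axis) for the genes called in the authors' table, red where the groups do not overlap in TPM and grey where they do; 285 of 287 tested higher genes and 1074 of 1184 tested lower genes have the same sign, and HOXA13 lies outside the axes. Right, the authors' log2 fold change of overexpression over eGFP (horizontal axis) and of RWPE-1 deletion over control (vertical axis) for the 429 genes called in both deposited tables, with genes of chromosome 5 marked apart; 220 genes lie lower in overexpression and higher in deletion.

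HOXA13 is also called higher where the 7p15 region is deleted in RWPE-1, in the authors' deposited table of that comparison. It averaged 748 TPM in the forced cells, and 8.03 TPM in deletion libraries against 1.16 TPM in their controls. The deletion libraries and their controls share no library with the transfected cells. The authors' deposited table of the deletion calls 1436 genes higher (7.98%) and 1686 lower (9.37%) of 17985. Among 12237 genes with an adjusted p in both tables, 1471 were called in the overexpression and 2614 in the deletion, with 429 in both. That is 29.2% of the overexpression calls, against 2614 of all 12237 genes called in the deletion. It is also 16.4% of the deletion calls, against 1471 of all 12237 genes called in the overexpression. Of the 1471 overexpression calls, 294 were higher and 1177 lower.

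The directions did not match for most of these. Of the 429 genes 40 were higher in both and 131 lower in both, while 220 were lower in overexpression and higher in deletion and 38 the reverse. How far these counts follow from the many lower calls in the overexpression was not tested. Across the 12237 genes Spearman's rho was -0.14, as a description over genes that are not independent. Of the 131 genes lower in both, 43 were on a chromosome other than 5. With those other chromosomes 334 genes were called in both, of which 38 were higher in both, 218 were lower in overexpression and higher in deletion and 35 the reverse.

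Genes higher in both of the authors' deposited tables, beside HOXA13, include several named above. LRATD1 stands at 0.67 in the overexpression and 1.09 in the deletion of the authors' deposited tables, SPINK6 at 0.64 and 1.85, DKK1 at 0.34 and 0.72, and SERPINB3 at 0.43 and 1.07. WNT7B, a Wnt ligand chosen after its values were seen, had 3.45, 2.84 and 3.26 TPM in the overexpression libraries, against 2.29, 2.11 and 1.86 TPM in the eGFP libraries, and the authors' deposited tables call it higher in both. LRATD1 had 5.62, 3.64 and 3.46 TPM in the overexpression libraries, against 2.03, 2.36 and 2.36 TPM in the eGFP libraries. PLOD2, a collagen lysyl hydroxylase also chosen after its values were seen, was lower in both. It had 17.5, 22.6 and 23.2 TPM in the overexpression libraries, against 30.2, 33.7 and 37.6 TPM in the eGFP libraries, and the authors' deposited tables give -0.63 in the overexpression and -1.04 in the deletion. In the fit without library 1 the log2 fold changes from TPM were 0.49 for LRATD1, against 0.67 with it, 0.39 for WNT7B and -0.54 for PLOD2.

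Other genes lay in opposite directions. SCNN1G, a subunit of the epithelial sodium channel, had 1.95, 3.54 and 1.66 TPM in the overexpression libraries, against 0.97, 0.63 and 1.22 TPM in the eGFP libraries, and the authors' deposited tables give 0.69 in the overexpression and -0.95 in the deletion. MSMO1, lower here, is called higher in the deletion of the authors' deposited table at 0.40. SLC7A11, the cystine transporter, stands at -0.67 in the overexpression and 0.63 in the deletion of the authors' deposited tables, but its groups overlapped in TPM. HOXA9 stands at -0.48 in the overexpression and 0.59 in the deletion of the authors' deposited tables, and HOXA11 at -0.29 and 0.86. HOTTIP, too low to test in the transfected cells, was called higher in the deletion of the authors' deposited table at 1.98. PI3 was not called in the deletion of that authors' deposited table, at -0.29 with an adjusted p of 0.534. From TPM without library 1, SCNN1G gave 0.85 and SLC7A11 -0.37.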

How the data were processed

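RNA-seq of 6 transfected RWPE-1 libraries was analysed from the deposited tables, with 12 untransfected RWPE-1 and 9 C4-2B control libraries set beside them. The submitters' processing notes list FastQC, Trimmomatic 0.35, STAR 2.5.2b, RSEM 1.3.0, featureCounts 1.5.1 and DESeq2 1.14.1 on GRCh37; which tool made which table is not stated. The authors' TPM table holds 60252 genes and no counts, so the depth of a library is unknown. The authors' deposited comparison tables give, per the file headers, a mean normalized count (a signal averaged over libraries), a log2 fold change, p-values raw and adjusted, and a standard error, which is a score here. The authors' tables do not say whether their log2 values are shrunken; HOXA13 stands at 2.08 there and at 7.70 from TPM. The mean normalized counts of the deposited overexpression table sum to 19723446.

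Genes with at least 1 TPM in at least 3 of the 6 libraries were fitted with limma 3.58.1 in R 4.3.3 (lmFit, then eBayes with a variance trend, two-sided tests) on log2(TPM + 1), with Benjamini-Hochberg adjustment over all genes tested and a threshold of 0.05. The added 1 understates fold changes of low genes. The fit was tested on simulated data. Gene symbols were matched for 55528 genes, and 711 of 742 symbols in 35 lists matched. The members and lists were chosen with earlier results of these data known. Named genes were the HOXA cluster, genes called by limma, the 12 highest and 12 lowest log2 fold changes without library 1 among separated genes, up to 4 members per list by p, the 8 highest and 8 lowest of the authors' table, and luminal markers. The separated genes also needed a mean of 5 TPM or more in the higher group. They further needed the same sign and an unadjusted limma p under 0.01 both with and without library 1. Alternatives were the pseudocount, the filter, the scaling, the variance trend, a replicate block, a fit on all 18 RWPE-1 libraries and each library left out. The Hi-C file was not used here. Results of some genes are not reported here.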

Additional observations from a re-analysis of the deposited data

How the results depend on the processing

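HOXA13 passed limma under every alternative run, with log2 fold changes of 7.52 to 8.14. The count of genes called was 2 over all 6 libraries. It was 1 with no filter on low values (1 higher), 5 without the variance trend (4 higher, 1 lower), and 131 when all 18 RWPE-1 libraries were fitted together (42 higher, 89 lower), where 12 of the higher genes had their highest value in overexpression library 1. With 1 library left out it ranged over 1 to 4 genes, 1 to 4 higher and 0 to 1 lower. PI3 had a limma adjusted p of 0.0925 with no filter and 0.532 with all 18 libraries. Genes whose groups did not overlap numbered 3123, and 4063 to 5114 with 1 library left out, with 2278 to 3374 higher and 1540 to 2260 lower; fewer libraries in an arm make separation easier. The replicate numbers of the flasks did not pair the samples, since the correlations of same-numbered deviations were 0.0059, -0.0166 and -0.0076. A replicate block gave 1 call (1 higher), with PI3 at an adjusted p of 0.137. Of 1445 values of 98 named genes under alternatives, 1422 kept direction and call, 16 passed newly, 7 (all PI3) no longer passed, and 0 reversed. All but HOXA13 and PI3 were uncalled over all 6 libraries, so for them keeping the call meant staying uncalled. Some were chosen for the same sign with and without library 1, and those could not reverse there. The 98 genes do not include TP63 and KRT14, whose small log2 fold changes changed sign without library 1. The cause of these changes was not tested. Without counts per library, detection limits could not be computed.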
